A study of Mus musculus with 20 samples.

Results

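The genes described here encode 8 proteins of T-cell restraint: the receptors Pdcd1 (PD-1), Ctla4, Lag3, Havcr2 (TIM-3), Tigit and Cd160, the ectoenzyme Entpd1 (CD39) and the nuclear factor Tox. They are a named list, 8 of the 31053 genes in each matrix, and they were followed in Cd8 T cells, in Cd4 T cells without Foxp3, in T cells with Foxp3 and in B cells. A T cell had at least 2 unique molecular identifiers (UMIs, each standing for 1 captured transcript) of Cd3d, Cd3e and Cd3g together and at most 1 of Cd79a and Cd79b. A Cd8 T cell had a UMI of Cd8a or Cd8b1 and none of Cd4, a Foxp3-positive T cell had a UMI of Foxp3, and the Cd4 class had Cd4 and neither Foxp3 nor Cd8a or Cd8b1. A B cell had at least 2 Cd79a and Cd79b UMIs and none of Cd3.

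Single-cell 3′ RNA-seq libraries were made from unselected live cells of 13 transgenic mice that develop B-cell leukemia or lymphoma, 20 libraries in all. Eµ-PRMT5 mice (5 spleens) carry a human PRMT5 cDNA behind a mouse VH promoter and IgH-µ enhancer, Eµ-TCL1 mice (4 spleens, 3 lymph nodes) carry the TCL1 oncogene under the same kind of B-cell directed control, and Eµ-PRMT5/TCL1 mice (4 spleens, 4 lymph nodes) carry both. Both transgenes are directed to B cells, not to the T cells described here, and no wild-type mouse was among the libraries. The strain was labelled C57BL/6N, the nodes were sub-mandibular, tissue was taken when a mouse met early removal criteria, ages were not labelled, and the label of 1 of the 5 Eµ-PRMT5 spleens (spleen 3) names a founder line. Lymph node and spleen came from the same animal in 7 mice.

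Checkpoint receptors are switched on when the T-cell receptor signals, and they dampen further signalling when they meet their ligands on tumor or antigen-presenting cells. PD-1 and CTLA-4 recruit phosphatases or compete for CD80 and CD86, LAG-3 binds MHC class II, TIM-3 has several proposed ligands including galectin-9, TIGIT competes for the poliovirus receptor family, and CD160 binds HVEM. TOX sustains the gene program of T cells under chronic stimulation, CD39 breaks down extracellular ATP, and CTLA-4 and TIGIT are also standing features of regulatory T cells.

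By the GENCODE vM21 annotation of GRCm38, all members are protein-coding genes. Pdcd1 lies at chr1:94038305-94052553 on the minus strand, Ctla4 at chr1:60887000-60915832 on the plus strand and Cd160 at chr3:96798763-96829351 on the minus strand. Tox lies at chr4:6686353-6991557 on the minus strand, Lag3 at chr6:124904361-124911705 on the minus strand and Havcr2 at chr11:46454935-46481255 on the plus strand. Tigit lies at chr16:43648867-43664146 on the minus strand and Entpd1 at chr19:40612366-40741602 on the plus strand.

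After removal of predicted doublets 84231 cells remained, 688 to 7631 per library, with a median of 3553 to 14285 UMIs per cell. They held 23030 Cd8 T cells, 2169 Foxp3-negative Cd4 T cells, 208 Foxp3-positive T cells and 33507 B cells. Another 4680 T cells fell outside these classes, and 6120 cells with at least 2 Cd3 UMIs were left out because they had more than 1 Cd79 UMI. No pair of the 20 libraries shared more than 1.308% of its cell barcodes. In the Cd8 class all 8 fixed T-cell markers were found in at least 20% of cells, whereas summed B-cell markers ranged from 53.1 to 1616 CPM (UMIs scaled to a common library total) and neutrophil markers from 0 to 4349 CPM. Foxp3-positive cells of 3 spleens held 2133 to 2579 CPM of the regulatory T-cell markers against 615 to 1290 CPM in the Cd4 class of 13 libraries. The marker lists hold genes of the gates (Foxp3, Cd3d, Cd3e, Cd3g, Cd79a and Cd79b), so part of these values was set by the gates. Sets of at least 20 cells entered the comparisons, which left all 20 libraries for Cd8 T cells, 13 for Cd4 T cells and only 3 spleens for Foxp3-positive T cells.

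A pair of libraries stood apart by their few Cd8 T cells, and libraries with outlying values are listed further below. Eµ-PRMT5 spleen 4 gave 32 Cd8 T cells with a median of 10953.5 UMIs, the most B-cell marker RNA of any Cd8 set (1616 CPM), and 1228 of the 6120 cells left out for Cd79. Eµ-PRMT5/TCL1 lymph node 1 gave 30 Cd8 T cells and the smallest library (688 cells). The part of cell number and B-cell RNA in their receptor values was not tested, and the genotype comparisons of Cd8 T cells are given with and without them.

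Neutrophils served as cells that should lack most of these receptors. In 11 spleens with 3336 neutrophils, mean levels were 0.376 CPM for Tigit, 0.313 for Ctla4, 0.206 for Tox, 0.186 for Pdcd1, 0.173 for Lag3 and 0.0933 for Cd160. At 1500 UMIs per cell, 0.0794% of neutrophils had a Pdcd1 UMI and 0.081% a Tigit UMI as means over the libraries, at median depths of 5513 to 10943 UMIs against 2854 to 10953.5 UMIs in Cd8 T cells. Entpd1 was a neutrophil transcript in its own right (46.6 ± 31.8 CPM, SD, n = 11 libraries), and Havcr2 reached 4.37 ± 4.64 CPM there.

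Tigit was the member found most often in T cells, and for most members the order of levels ran from Foxp3-positive T cells and Foxp3-negative Cd4 T cells down to Cd8 T cells. Tigit, the poliovirus receptor competitor, had a mean of 1082 ± 433 CPM in Foxp3-positive T cells (SD, n = 3 spleens), 639 ± 315 CPM in Cd4 T cells (n = 8) and 171 ± 142 CPM in Cd8 T cells (n = 13). Its spleen range in Cd8 T cells was 35.6, 149.9 and 610.3 CPM (lowest, median, highest), and the share of cells with a Tigit UMI at 1500 UMIs per cell, averaged over spleens, was 18.4% ± 10.5 (41.1% without thinning), or 1760 of 12680 cells pooled. B cells held 6.55 CPM of Tigit, or 4.35 CPM without Eµ-PRMT5/TCL1 spleen 4. Neighbouring classes overlapped in their library values. The order of levels across classes is within a gene, and differences between genes were not tested.

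Pdcd1, the receptor targeted in PD-1 blockade, was about as high in Foxp3-positive T cells (514 ± 198 CPM, n = 3) as in Cd4 T cells (481 ± 267 CPM, n = 8) and lower in Cd8 T cells (97.9 ± 119.8 CPM, n = 13). In splenic Cd4 T cells it ran from 205 through 416 to 1061 CPM (lowest, median, highest), and in splenic Cd8 T cells from 1.95 through 53.1 to 449.7 CPM. At 1500 UMIs per cell the share of cells with a Pdcd1 UMI, averaged over spleens, was 38.1% ± 14.6 of Cd4 T cells (n = 8) and 7.44% ± 7.14 of Cd8 T cells (n = 13), and 58.3% and 14.5% without thinning. Pooled, 791 of 1514 Cd4 and 654 of 12680 Cd8 T cells had one after thinning. Every Cd8 value lay above the neutrophil mean of 0.186 CPM. The lowest share, 0.0951% in Eµ-PRMT5 spleen 5, was close to the 0.0794% of neutrophils. That spleen gave only 2 neutrophils and did not enter this mean, so whether its share is background cannot be told.

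Ctla4, the CD80 and CD86 competitor, stood highest in Foxp3-positive T cells with 683 ± 312 CPM, followed by Cd4 T cells with 268 ± 119 CPM. Splenic B cells held 114 ± 110.1 CPM of Ctla4 (n = 13), above the 47.4 ± 70.2 CPM of splenic Cd8 T cells. Those B-cell libraries ranged widely, from 13.9 through 77.8 to 428 CPM, and overlapped the Cd8 range of 0.573 to 213 CPM. Lag3, the MHC class II receptor, had a mean of 251 ± 343 CPM in Foxp3-negative Cd4 T cells. That mean rested on Eµ-TCL1 spleen 1 (1086 CPM) and was 132 ± 65.2 CPM in the other 7 spleens. Foxp3-positive T cells, of which that spleen gave no set, had 70.9 ± 37.8 CPM of Lag3, with 43.3 ± 64.2 CPM in Cd8 T cells and 21.4 ± 20.04 CPM in B cells.

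The remaining members differed in the class with the highest mean. Havcr2 had means of 51.0, 29.7 and 13.1 CPM in Foxp3-positive, Cd4 and Cd8 T cells of the spleen, the last of which was 7.83 CPM without Eµ-PRMT5 spleen 4, and Tox had 195, 139 and 26.3 CPM. Cd160, the HVEM receptor, was the member with its highest mean in Cd8 T cells (19.04 CPM, or 13.01 CPM without Eµ-PRMT5 spleen 4, against 4.40 CPM in Cd4 T cells). Entpd1 was higher in B cells (47.3 ± 26.9 CPM, n = 13) and in neutrophils than in Cd8 T cells (16.5 ± 12.9 CPM), and B cells held almost no Havcr2 (0.460 CPM), Tox (0.178 CPM) or Cd160 (0.0730 CPM).

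**Figure D1:**
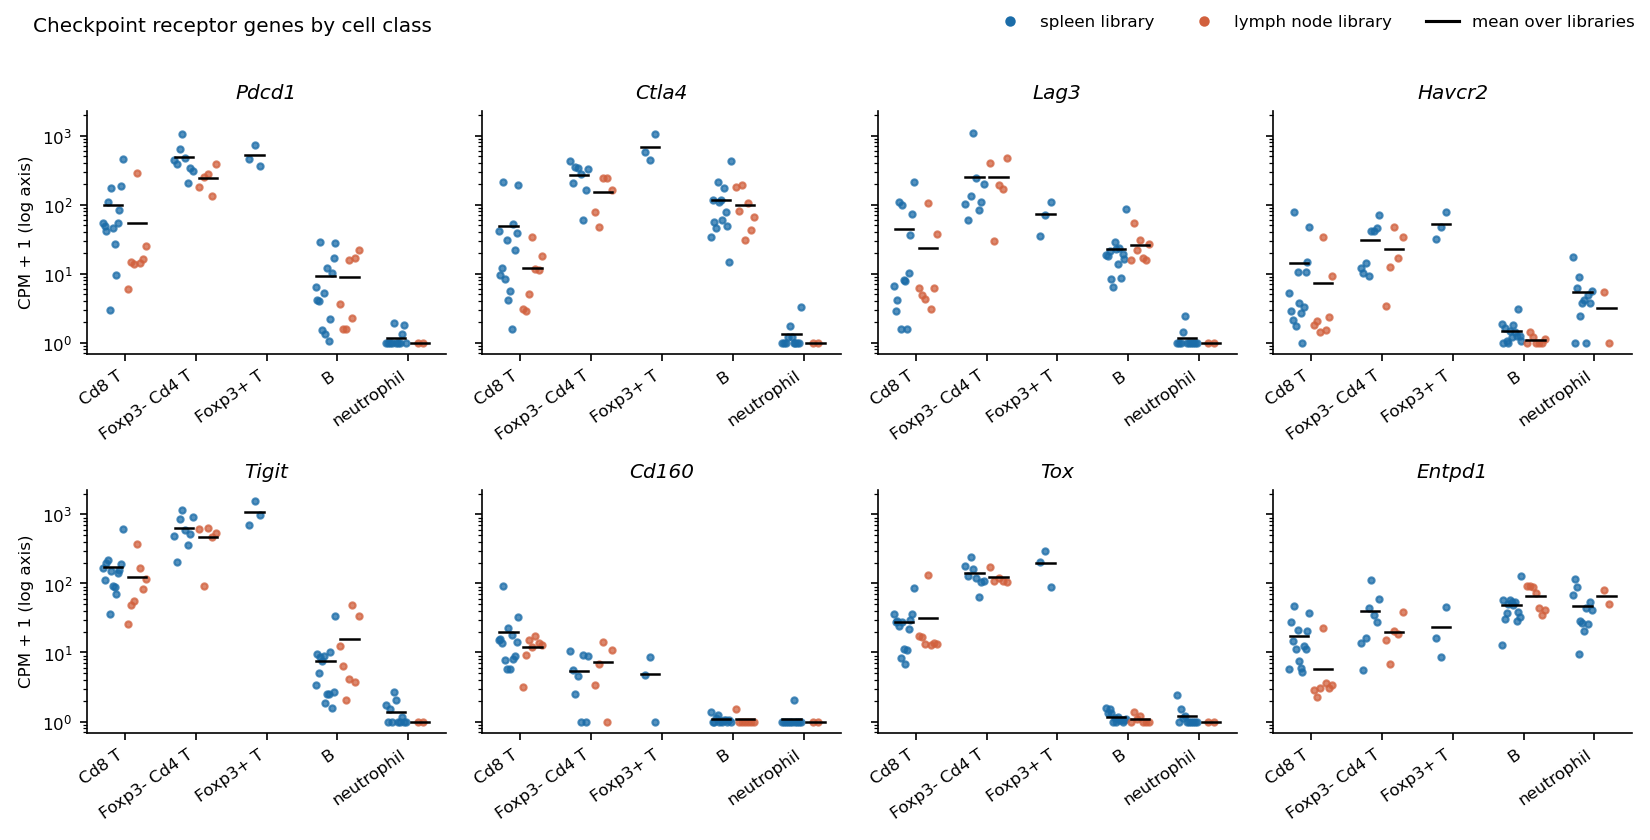
Level of each member (CPM + 1, log axis) in every library with at least 20 cells of a class, for spleens and lymph nodes, with the mean as a bar. Tigit, Pdcd1, Ctla4 and Tox sit high in Foxp3-positive T cells and in Foxp3-negative Cd4 T cells, Cd160 sits highest in Cd8 T cells, and Ctla4 and Entpd1 extend into B cells.

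The receptors were also spread unevenly over single cells. Pooled at 1500 UMIs per cell, 79.3% of splenic Cd8 T cells and 86.5% of nodal Cd8 T cells had no UMI of any member. The share was 27.3% in nodal Cd4 T cells and 13.6% in Foxp3-positive cells. Eµ-PRMT5 spleen 5 gave 4206 of the 12680 splenic Cd8 T cells. Over libraries the Cd8 share ran from 31.25% through 71.8% to 90.8% in spleens (lowest, median, highest). In nodes it ran from 33.3% through 85.0% to 93.1%. In splenic Cd4 T cells the share ran from 2.46% through 26.3% to 40.5% over 8 spleens (lowest, median, highest). Pooled it was 12.2%, but 773 of those 1514 cells came from Eµ-TCL1 spleen 1, which had the lowest share, and it was 22.3% of the 741 cells without that spleen. At least 5 members were found together in 25 of 12680 splenic Cd8 T cells (0.197%), which became 10 of 12059 (0.0829%) without Eµ-PRMT5/TCL1 spleen 4, and in 58 of 1514 splenic Cd4 T cells (3.83%), which became 12 of 741 (1.62%) without Eµ-TCL1 spleen 1.

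Foxp3-positive T cells, which were not gated on Cd4 or Cd8, were compared with Foxp3-negative Cd4 T cells within the 3 spleens that held both, Eµ-PRMT5 spleens 1 and 3 and Eµ-PRMT5/TCL1 spleen 4. Ctla4 read 567, 445 and 1036 CPM in their Foxp3-positive cells and was higher than in the Foxp3-negative cells of the same spleen each time, a log2 difference of 0.80 with an SE of 0.19 (adjusted p = 0.02, edgeR). Lag3 read 34.0, 69.1 and 109.6 CPM and was lower each time, with a log2 difference of -1.10 ± 0.26 (adjusted p = 0.0222). These 2 of 8 members passed the test in a comparison where 1.46% of 9247 genes did. Tigit (log2 0.48, adjusted p = 0.089), Havcr2 (0.80, adjusted p = 0.542) and Pdcd1 (0.12, adjusted p = 0.921) did not pass, although all 3 were higher in each spleen, a pattern that 29.9% of all genes shared in 1 direction or the other. Other markers also moved with this comparison. Cd8a and Cd8b1 summed to 64.3, 222.6 and 279.6 CPM in the Foxp3-positive sets and were 0 by definition in the Cd4 class. B-cell markers summed to 3328, 484 and 3125 CPM in the Foxp3-positive sets against 743, 733 and 1635 CPM in the Foxp3-negative ones, and B cells of Eµ-PRMT5/TCL1 spleen 4 held 428 CPM of Ctla4. In cells with no Cd79 UMI Ctla4 differed by 0.97 (adjusted p = 0.000882) and Lag3 by -0.87 (adjusted p = 0.431).

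The calls of this small comparison were not stable. DESeq2 called neither gene (adjusted p = 0.44 for Ctla4 and 0.901 for Lag3), nor did edgeR with a count minimum of 10 (0.1002 and 0.0668). Ctla4 read 0.39 (adjusted p = 0.345) without Eµ-PRMT5/TCL1 spleen 4, and Lag3 read -0.87 (adjusted p = 0.431) without Eµ-PRMT5 spleen 1 and -1.13 (adjusted p = 0.056) without Eµ-PRMT5 spleen 3. With sets of at least 5 cells, an alternative chosen after seeing the data, Ctla4 was higher by 1.00 in 8 of 9 spleens (adjusted p = 0.0164) and by 1.38 in 4 of 4 lymph nodes (adjusted p = 0.00145). Lag3 was lower there, with -1.45 in spleens (adjusted p = 0.00549, 8 of 9) and -1.47 in nodes (adjusted p = 0.0129, 4 of 4), where 1.66% and 1.09% of all genes passed and 16.5% went 1 way in the 4 nodes.

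Other genes of T-cell function differed between the same cells of the 3 spleens. The stability of these calls is not given, and the part of the Cd8 RNA given above in them was not tested. Of 7 costimulators, 2 were higher and none lower (median log2 0.40 against -0.06 over all genes): Tnfrsf9, the 4-1BB receptor, by 1.86 ± 0.14 (adjusted p = 2.1e-10) and Icos by 0.70 (adjusted p = 0.024). Of 14 activation and exhaustion regulators, 1 was higher and 4 were lower. Ikzf2 (Helios), also one of the regulatory T-cell markers, was higher by 1.93, while Eomes, a T-box factor of effector cells, fell by 1.81 and Nfatc1 by 1.57. Among 12 effector genes, Gzmk (-1.66), Ifng (-2.99) and Ccl4 (-4.49) were lower and Klrd1 was higher (2.10), and 3 of 10 naive and memory genes were lower, Tcf7 among them (-1.05, adjusted p = 0.034). Of 11 other inhibitory receptors, Klrg1 alone passed (2.35), of 6 follicular helper genes Cxcr5 alone (-2.30), and none of 5 cell-cycle genes.

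Cd8 T cells held less of most members than Foxp3-negative Cd4 T cells of the same library. In 8 spleens 7 of 8 members passed the test, 6 of them lower in Cd8 T cells and Cd160 higher, where 18.4% of 11776 genes passed (8.33% of all genes lower, 10.1% higher). Ctla4 had the largest difference (48.4 ± 58.7 against 268 ± 119 CPM, log2 -2.60 ± 0.39, adjusted p = 0.000327) and was lower in 8 of 8 spleens, as were Tox (-1.71 ± 0.25, adjusted p = 0.000259) and Tigit (-1.34 ± 0.21, adjusted p = 0.000466). Lag3 (-2.32 ± 0.55, adjusted p = 0.00915), Pdcd1 (-1.90 ± 0.40, adjusted p = 0.00463) and Havcr2 (-1.17 ± 0.35, adjusted p = 0.031) were lower in 7 of 8. Cd160 was higher in 7 of 8 (13.2 against 4.40 CPM, log2 1.32 ± 0.35, adjusted p = 0.017), and Entpd1 read -0.70 (adjusted p = 0.13). All pairs went 1 way for 13.3% of genes.

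In 5 lymph nodes the gap was wider in value, though spleens and nodes were not tested against each other for it. There 7 of 8 members were lower in Cd8 T cells in every node, where 21.9% of all genes passed and 31.3% went 1 way in every node. Lag3 differed by -4.53 ± 0.36, Ctla4 by -3.93 ± 0.25 and Pdcd1 by -3.75 ± 0.24 (14.3 ± 6.89 against 243.8 ± 96.8 CPM, adjusted p = 1.79e-09). Entpd1 (-2.78), Tox (-2.74), Havcr2 (-2.64) and Tigit (-2.13) followed, and Cd160 did not pass (1.09, adjusted p = 0.118). A few calls turned on 1 spleen. Havcr2 lost its call without Eµ-PRMT5 spleen 1 (adjusted p = 0.0591), Eµ-PRMT5 spleen 3 (0.0623), Eµ-PRMT5/TCL1 spleen 2 (0.0951) or Eµ-PRMT5/TCL1 spleen 3 (0.0693), and Cd160 without Eµ-PRMT5/TCL1 spleen 4 (1.19, adjusted p = 0.0536), and neither passed with sets of at least 50 cells (adjusted p = 0.153 and 0.0667), while Entpd1 gained one without Eµ-PRMT5 spleen 2.

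The same cells differed in the wider T-cell program. In spleens 6 of 7 costimulators were lower in Cd8 T cells (list median -0.77 against 0.05 over all genes), led by Tnfrsf4, the OX40 receptor, with 35.3 against 793 CPM (log2 -4.17 ± 0.51). Of 14 regulators 10 were lower and 1 higher (median -0.94), Maf by -3.47, Tox2 by -3.25 and Ikzf2 by -2.09, with Tbx21 (T-bet) higher by 1.06. Of 10 naive and memory genes 8 were higher and 1 lower (median 1.69), including Satb1 (2.56) and Tcf7 (1.84), with Slamf6 lower (-2.09). Of 12 effector genes 2 were higher, Klrd1 by 3.72 and Ccl5 by 1.24, and 2 lower, Gzmk (-1.56) and Ifng (-1.12). The other inhibitory receptors split as well, 2 higher, Klrc1 by 4.46 and Cd101, and 4 lower of 12, Cd5 by -1.88 among them. Follicular helper genes (5 of 7 lower, Il21 by -5.93) and cell-cycle genes (5 of 5 lower, Mki67 by -1.65) were low in Cd8 T cells.

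**Figure D2:**
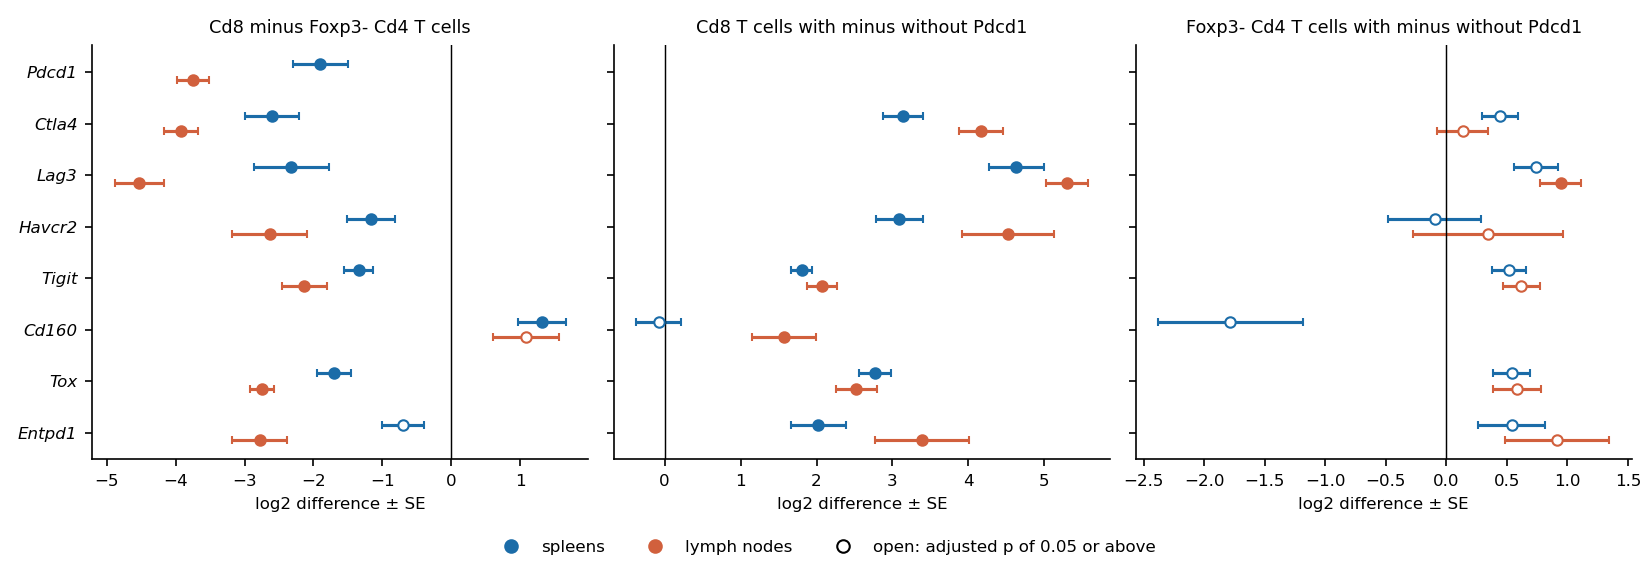
Log2 difference with its SE for each member in spleens and lymph nodes, between Cd8 and Foxp3-negative Cd4 T cells and between cells with and without a Pdcd1 UMI in each class, with filled points for an adjusted p below 0.05. Most members lie left of 0 in the first panel and right of 0 in the second, and the third panel has a single filled point, Lag3 in nodes.

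Within the Cd8 class, cells with a Pdcd1 UMI carried more of most other members than cells without one. Pdcd1 defined the split and is not counted among its results. In 10 spleens, each with at least 20 Cd8 T cells on either side, 6 of the 7 other members were higher, where 24.8% of 11761 genes passed and 12.1% were higher. Lag3 rose most, from 8.10 ± 15.2 to 166 ± 174 CPM (log2 4.63 ± 0.37, adjusted p = 3.05e-08), and was higher in 10 of 10 spleens. Ctla4 (3.14 ± 0.27, adjusted p = 8.91e-08, 115 against 13.1 CPM), Tox (2.77 ± 0.22, adjusted p = 3.05e-08) and Tigit (1.80 ± 0.14, adjusted p = 3.05e-08, 462 against 115 CPM) were also higher in every spleen. Havcr2 was higher in 9 (3.09 ± 0.31) and Entpd1 in 8 (2.02 ± 0.37). All pairs went 1 way for 6.87% of genes. Cd160 differed by -0.08 ± 0.29 (adjusted p = 0.888). The share of Pdcd1 in Eµ-PRMT5 spleen 5, 1 of the 10 spleens, was close to the neutrophil mean. Without this spleen the same 6 members passed (Lag3 by 4.54, Ctla4 by 2.98).

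Lymph nodes gave the same 6 members and Cd160. In 5 nodes Lag3 was higher by 5.29 ± 0.28 (203 against 4.60 CPM), Havcr2 by 4.52, Ctla4 by 4.17 ± 0.29, Entpd1 by 3.39, Tox by 2.52 and Tigit by 2.07, each in 5 of 5 nodes (19.7% of genes went 1 way in all 5), where 12.0% of 10818 genes passed and 5.82% were higher. Cd160 was higher in 4 of 5 (1.58 ± 0.42, adjusted p = 0.00528), which without Eµ-PRMT5/TCL1 lymph node 4 became 0.68 (adjusted p = 0.581). When cells were split after thinning to 1500 UMIs, Lag3, Ctla4 and Tigit passed, Havcr2 (3.24, adjusted p = 0.541), Cd160 (1.75, adjusted p = 0.502) and Tox (2.20, adjusted p = 0.0683) did not, and Entpd1 was too sparse to be tested.

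Markers of other cells moved with the split. Summed B-cell markers had a median of 373 CPM (62.6 to 2352) in 15 sets of cells with Pdcd1 and 98.9 CPM (42.0 to 608) in 18 sets without. Myeloid markers read 283 CPM (54.6 to 3507) against 149.9 CPM (86.0 to 1408), neutrophil markers 26.96 CPM (0 to 11096) against 89.3 CPM (0.13 to 5724), and regulatory T-cell markers 488 CPM (340 to 628) against 259.8 CPM (143 to 354). In cells with no Cd79 UMI Lag3 differed by 4.74 and Ctla4 by 3.29 in spleens and by 5.20 and 4.30 in nodes. The part of the myeloid and neutrophil RNA in the differences was not tested. The share of splenic cells with at least 3 Cd8a and Cd8b1 UMIs was 80.4% of 1125 with Pdcd1 and 70.4% of 11555 without, and it was higher with Pdcd1 in 9 of the 10 spleens and lower in Eµ-PRMT5 spleen 3 (64.0% against 71.7%). Among cells with at least 3 such UMIs Lag3 differed by 4.39 in spleens and 4.66 in nodes.

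In splenic Cd8 T cells the pooled shares of cells with Lag3, Tigit, Ctla4 or Tox were higher at each step of Pdcd1 UMIs among 1500, and that of Cd160 was not (1.55%, 2.54% and 1.18%). Lag3 was found in 0.87% of 12026 cells with no Pdcd1 UMI, 22.9% of 315 cells with 1 and 33.9% of 339 cells with at least 2. Tigit went from 11.5% through 45.4% to 69.9%, Ctla4 from 1.52% through 17.1% to 22.7% and Tox from 1.87% through 14.6% to 22.7%. Gzmk, a granzyme of memory and dysfunctional Cd8 T cells, went from 3.87% to 61.4%, while Tcf7, a factor of naive and stem-like T cells, went from 35.1% down to 9.44%. In nodes, with 81 and 50 cells in the upper steps, Tigit was found in 40.7% and 52%, whereas Lag3 went from 0.519% to 28.4% and then 20%. These are pooled cells and are given as a description. Eµ-PRMT5 spleen 5 gave 4202 of the 12026 splenic cells with no Pdcd1 UMI and 4 of those with any, and Lag3 was found in 1.32% of the 7824 other cells with none, while Eµ-PRMT5/TCL1 spleens 3 and 4 gave 166 and 164 of the cells with any. Within the 8 spleens with at least 20 cells on either side, the share with Lag3 was 0 to 5.47% in cells with no Pdcd1 UMI and 6.45% to 54.3% in cells with any, and higher with Pdcd1 in 8 of 8. Tigit (7.74% to 32.4% and 24.3% to 78.0%) and Tox (0.407% to 5.03% and 6.45% to 22.7%) were also higher in 8 of 8, Ctla4 in 7, Havcr2 and Entpd1 in 5 and Cd160 in 4.

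**Figure D3:**
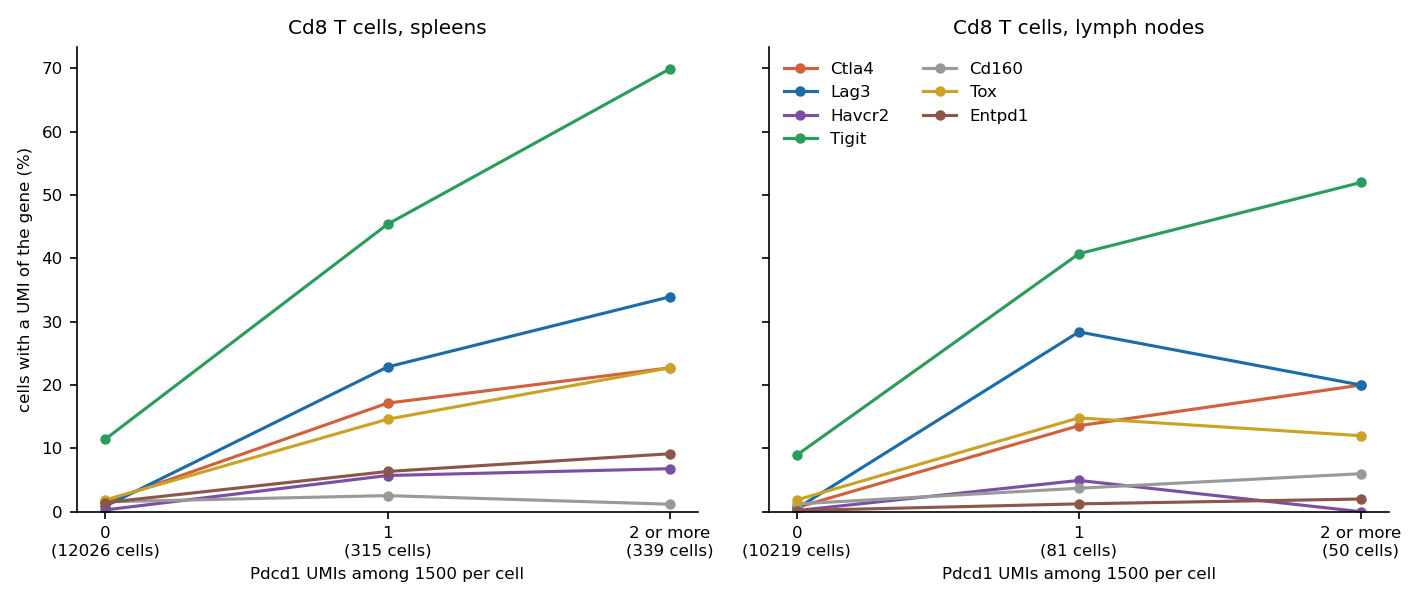
Percentage of Cd8 T cells with a UMI of each other member, for cells with 0, 1 or at least 2 Pdcd1 UMIs among 1500, in spleens and lymph nodes, with the number of pooled cells under each step. Tigit, Lag3, Ctla4 and Tox lie higher at each step in spleens, Cd160 stays low there, and in nodes Lag3 peaks at 1 UMI.

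Joint detection was counted within single libraries. In thinned splenic Cd8 T cells of 13 libraries Pdcd1 and Lag3 were found together in 187 cells. Independence within each library would give 46.5, and the pooled odds ratio was 16.01 (13.2 to 19.5 with any 1 library left out). Eµ-PRMT5 spleen 2, Eµ-PRMT5/TCL1 spleen 1 and Eµ-TCL1 spleen 4 held none of the 187 cells. Pdcd1 met Tigit in 380 cells against 161 (odds ratio 6.63) and Tox in 123 against 35.5 (7.52), but Cd160 in 12 against 14.8 (0.782). Without Eµ-PRMT5/TCL1 spleen 4 these became 122 against 22.8 for Lag3 (19.5), 252 against 88.5 for Tigit (6.41), 86 against 19.6 for Tox (8.61) and 8 against 7.70 for Cd160 (1.04). In splenic Cd4 T cells the same pairs lay closer to independence, Pdcd1 and Lag3 in 433 cells against 399 (1.80) and Pdcd1 and Tigit in 616 against 570 (2.03). Most of those cells were from Eµ-TCL1 spleen 1, without which the counts were 48 against 37.1 (1.69) and 162 against 134.3 (2.04). The cells of a library share its preparation, all cells were thinned to 1500 UMIs, and no test was made.

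Cd8 T cells with Pdcd1 differed over much of the T-cell program. In spleens 10 of 12 effector genes were higher and 1 lower (list median 1.35 against -0.06 over all genes). Gzmk was higher by 3.51 ± 0.35 (575 against 77.6 CPM, 10 of 10 spleens), the chemokine Ccl3 by 2.81, Ifng by 1.89 and Gzmb by 1.41, and Klrd1 was lower (-0.63). Of 14 regulators 9 were higher and 1 lower, Maf by 4.02, Ikzf2 by 3.49, Tox2 by 3.22 and Nr4a2, an immediate target of receptor signalling, by 1.85, with Tbx21 lower (-0.51). Of 10 naive and memory genes 9 were lower and 1 higher (median -1.22), Satb1 by -1.68, Ccr7 by -1.55, Il7r by -1.496 and Tcf7 by -1.45, with Slamf6 higher (1.22).

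In the same spleens 4 of 7 costimulators were higher, with Tnfrsf4 higher by 3.21 (111 against 10.1 CPM). Of 12 other inhibitory receptors 5 were higher, including Cd200r1 (2.81), Klrg1 (2.61) and Cd244 (2.11), and 2 lower. All 5 cell-cycle genes were higher, Mki67 by 1.91 (59.1 against 12.7 CPM), and 3 of 5 follicular helper genes, Izumo1r by 4.08. Of the genes that rose here, Maf, Tox2, Ikzf2, Tnfrsf4 and Izumo1r were among those lower in Cd8 than in Cd4 T cells. In nodes the counts were 10 higher and 1 lower of 12 effector genes, 9 higher of 14 regulators, 9 lower and 1 higher of 10 naive and memory genes, 3 higher of 7 costimulators and 5 higher of 5 cell-cycle genes, with Gzmk higher by 4.20 and Gzmb by 3.38.

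The 250 bases before the transcription start are shown for Pdcd1, which defined this split, and for Ctla4, Havcr2 and Tigit, which were higher in the cells with it, each 5′ to 3′ on the gene's own strand (RefSeq, GRCm38.p6). These 4 were the members with a single start listed, Entpd1 and Cd160 had 2 each, and Lag3 and Tox were not matched. Capitals mark GGAAA on either strand, the core recognised by NFAT factors, or TGANTCA on either strand, the AP-1 motif. The windows are chr1:94052554-94052803 (minus strand) for Pdcd1, chr1:60908775-60909024 (plus strand) for Ctla4, chr11:46454681-46454930 (plus strand) for Havcr2 and chr16:43664185-43664434 (minus strand) for Tigit. The RefSeq start used for Ctla4, and so its window, lies inside the GENCODE span of the gene given above.
Pdcd1: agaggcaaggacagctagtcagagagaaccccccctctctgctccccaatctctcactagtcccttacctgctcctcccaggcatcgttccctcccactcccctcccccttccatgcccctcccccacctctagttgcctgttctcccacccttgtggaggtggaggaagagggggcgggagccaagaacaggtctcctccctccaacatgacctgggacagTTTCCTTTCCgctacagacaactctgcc
Ctla4: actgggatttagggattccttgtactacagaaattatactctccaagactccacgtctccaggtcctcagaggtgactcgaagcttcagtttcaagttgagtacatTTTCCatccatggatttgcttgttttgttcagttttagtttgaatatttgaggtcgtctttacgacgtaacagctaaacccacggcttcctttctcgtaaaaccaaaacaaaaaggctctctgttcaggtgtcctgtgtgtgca
Havcr2: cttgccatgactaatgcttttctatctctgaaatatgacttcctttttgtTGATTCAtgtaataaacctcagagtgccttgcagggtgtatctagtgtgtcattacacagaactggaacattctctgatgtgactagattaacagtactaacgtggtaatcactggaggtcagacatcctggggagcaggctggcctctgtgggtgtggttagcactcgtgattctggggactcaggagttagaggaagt
Tigit: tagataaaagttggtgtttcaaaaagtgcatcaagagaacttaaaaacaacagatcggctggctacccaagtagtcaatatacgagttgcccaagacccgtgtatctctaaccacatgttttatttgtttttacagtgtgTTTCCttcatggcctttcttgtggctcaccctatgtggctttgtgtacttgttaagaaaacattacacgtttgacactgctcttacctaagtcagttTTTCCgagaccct
The NFAT core was found at 2 places in the Pdcd1 window, 1 in the Ctla4 window, 0 in the Havcr2 window and 2 in the Tigit window, and the AP-1 motif once, in the Havcr2 window. The Entpd1 windows, not printed, held the NFAT core at 0 and 2 places and no AP-1 motif. Of 32851 promoter windows of this length 55.6% held the short NFAT core and 6.75% the AP-1 motif, so the matches are a description of the letters only.

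In Foxp3-negative Cd4 T cells the same split separated little. In 6 spleens none of the 7 other members passed the test (edgeR), where 0.266% of 10152 genes did (900 at an unadjusted p below 0.05) and where DESeq2 also called none. Lag3 read 0.74 (adjusted p = 0.0959), Tigit 0.52 (0.178), Tox 0.54 (0.19) and Ctla4 0.44 (0.313). Both Lag3 and Tigit passed when Eµ-PRMT5/TCL1 spleen 4 was left out. In 3 nodes Lag3 was higher by 0.94 ± 0.17 (462 against 224 CPM, adjusted p = 0.00182, 3 of 3, as for 28.5% of genes), where 0.414% of genes passed. It read 0.83 (adjusted p = 0.0825) without Eµ-PRMT5/TCL1 lymph node 3. The nodal call was also lost with DESeq2, with sets of at least 50 cells, with thinned cells and with no library block. Of the fixed lists, Ikzf2 (1.36), Tnfrsf9 (0.95) and Nfatc1 (0.81) were higher and Satb1 lower (-1.25) in spleens, and Ccl5 (0.72), Cd27 (0.71) and Nkg7 (0.62) were higher and Ccr7 lower (-1.09) in nodes.

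The study compared the genotypes, and the receptor levels of splenic Cd8 T cells overlapped between all of them. Pdcd1 read 53.5, 47.3, 40.6, 107 and 1.95 CPM in Eµ-PRMT5 spleens 1 to 5, 171, 45.5, 25.6 and 8.60 CPM in Eµ-TCL1 spleens 1 to 4, and 53.1, 83.3, 187 and 449.7 CPM in Eµ-PRMT5/TCL1 spleens 1 to 4. All 3 groups overlapped. Tigit read 165, 112, 199, 216 and 35.6 CPM, then 149.9, 91.3, 89.3 and 69.4 CPM, then 141, 155, 191 and 610.3 CPM in the same order, and Eµ-TCL1 spleens 2 to 4 and Eµ-PRMT5 spleens 2 and 5 lay below the range of the Eµ-PRMT5/TCL1 spleens while the others lay within it. Ctla4 read 40.3, 8.60, 11.01, 213 and 7.45 CPM, then 29.2, 3.08, 4.58 and 0.573 CPM, then 50.8, 21.02, 37.2 and 189 CPM with the genotypes as before. Lag3 spanned 0.576 to 109, 0.573 to 99.2 and 9.24 to 213 CPM. The highest splenic Cd8 value of every member lay in Eµ-PRMT5/TCL1 spleen 4 (Pdcd1, Lag3, Tigit, Tox) or Eµ-PRMT5 spleen 4 (Ctla4, Havcr2, Cd160, Entpd1).

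No member passed the test between genotypes in splenic Cd8 T cells (edgeR, 13 spleens shared by all 3 comparisons). Of 11576 genes, 0.0346% passed for Eµ-PRMT5 against Eµ-TCL1 and 0.0% for Eµ-PRMT5/TCL1 against either, with 599, 905 and 594 genes at an unadjusted p below 0.05. For Eµ-PRMT5/TCL1 against Eµ-TCL1 spleens the differences were 2.69 ± 1.14 for Ctla4, 1.52 ± 0.51 for Tox and 1.21 ± 0.48 for Tigit (each adjusted p = 0.631), and 1.36 ± 0.92 for Pdcd1 (adjusted p = 0.711). Against Eµ-PRMT5 spleens, Pdcd1 read 1.88 ± 0.89 (adjusted p = 0.959) and Lag3 2.71 (adjusted p = 0.976). Eµ-PRMT5 against Eµ-TCL1 gave 2.17 ± 1.13 for Ctla4 (adjusted p = 0.917) and -0.51 ± 0.89 for Pdcd1. Without Eµ-PRMT5 spleen 4 and its 32 cells no member was called either, Ctla4 read 0.81 and Lag3 -3.55 in that comparison, and Lag3 read 4.85 for Eµ-PRMT5/TCL1 against Eµ-PRMT5. No member separated any pair of genotypes without overlap, as 2.85%, 6.99% and 1.12% of all genes did. DESeq2 called no member in splenic Cd8 T cells either. The SE on the log2 scale was 0.89 to 1.51 for Pdcd1, Ctla4, Lag3 and Havcr2 over the 3 comparisons, and 0.45 to 0.71 for the other members.

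**Figure D4:**
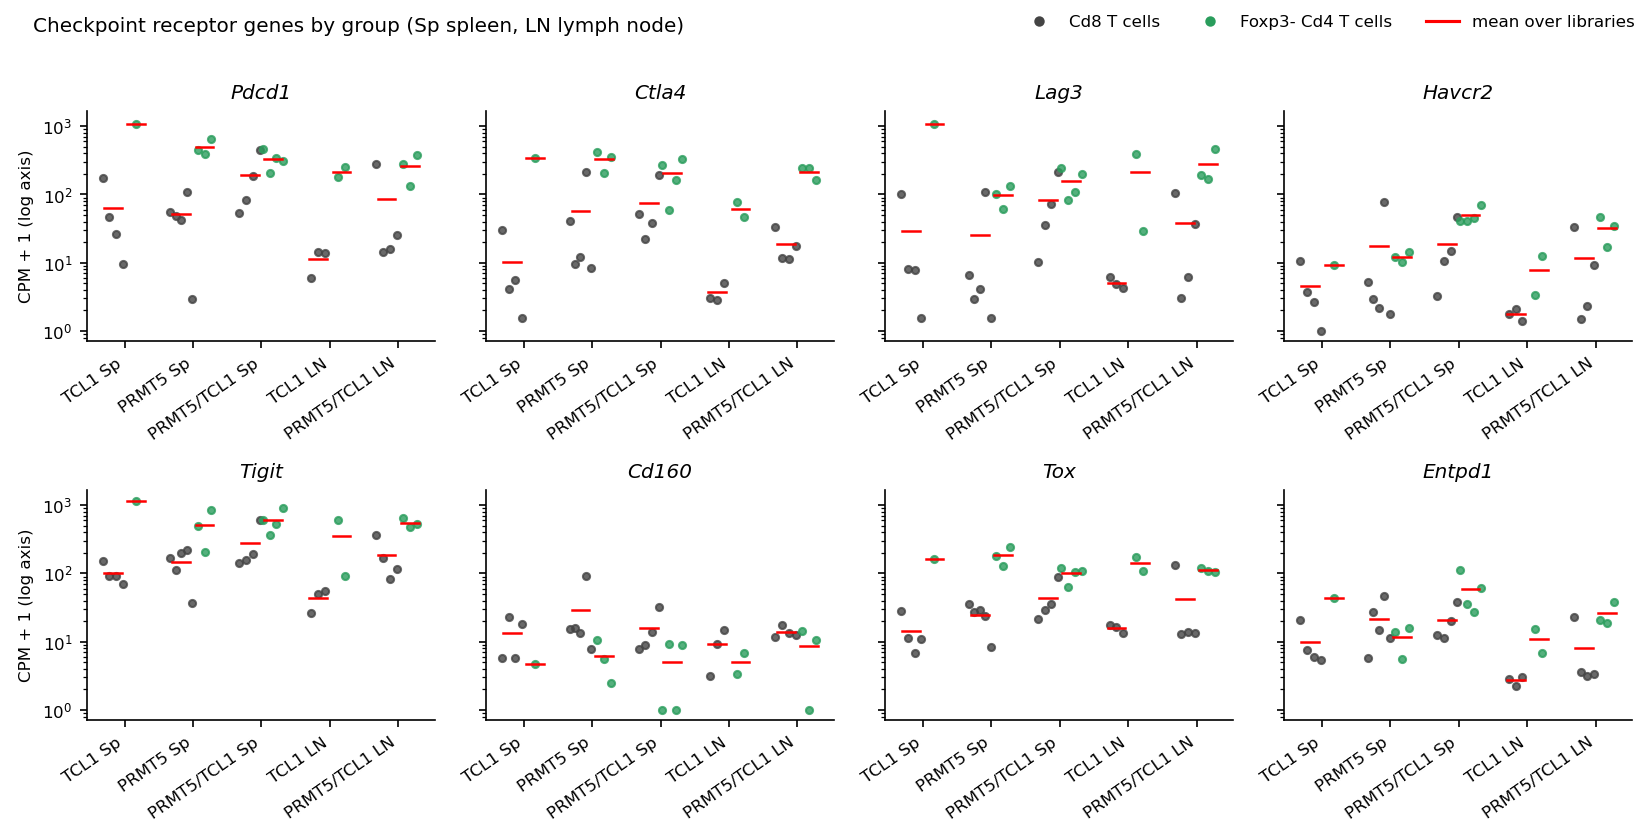
Level of each member (CPM + 1, log axis) in Cd8 and Foxp3-negative Cd4 T cells of every library by genotype and tissue, with the group mean as a bar. The splenic Cd8 points of the 3 genotypes overlap for every member. For Pdcd1, Ctla4, Lag3, Tigit and Tox most Cd4 points lie above most Cd8 points of their group. In Eµ-PRMT5 spleens the mean Cd8 levels of Havcr2 and Entpd1 lie above their mean Cd4 levels.

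In Foxp3-negative Cd4 T cells the genotype comparisons rested on 8 spleens, 1 of them Eµ-TCL1. That spleen, Eµ-TCL1 spleen 1, gave 773 Cd4 T cells and the highest Lag3 (1086 CPM), Pdcd1 (1061 CPM) and Tigit (1165 CPM) of any. Eµ-TCL1 spleens 2 and 3 gave 16 and 9 Cd4 T cells, too few to enter, and spleen 4 gave 1. Spleens 2 and 3 read 635 and 460 CPM of Lag3, 833 and 751 CPM of Pdcd1 and 819 and 736 CPM of Tigit. Lag3 read 101, 59.7 and 130.1 CPM in 3 Eµ-PRMT5 and 242, 83.3, 109 and 198 CPM in 4 Eµ-PRMT5/TCL1 spleens. It was lower than in the Eµ-TCL1 spleen by a log2 difference of -3.57 ± 0.49 in Eµ-PRMT5 (adjusted p = 0.00529) and -3.01 ± 0.46 in Eµ-PRMT5/TCL1 (adjusted p = 0.0173), where 1.38% and 0.217% of 10575 genes passed and 55.7% and 22.4% had no overlap, as Lag3 had none. With 1 spleen on one side these tests assume that it varies like the others, and genotype and spleen cannot be told apart in them. Without Eµ-PRMT5 spleen 1 the adjusted p became 0.0539 and 0.0502, and without Eµ-PRMT5/TCL1 spleen 3 the latter difference was -2.87 (adjusted p = 0.0693). With sets of at least 50 cells neither passed (adjusted p = 0.1096 and 0.32), nor did the latter with no Il2ra or Ikzf2 UMI in the Cd4 class (0.147). Pdcd1 did not pass (-1.24 and -1.88), nor did Havcr2, which was higher in Eµ-PRMT5/TCL1 than in Eµ-TCL1 (2.42, 48.9 against 8.28 CPM).

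When the 4 Eµ-PRMT5/TCL1 libraries were set against the 3 of Eµ-PRMT5, 2 of 8 members passed the test where 3.95% of genes did. Havcr2 read 11.1, 9.19 and 13.5 CPM with PRMT5 alone and 40.3, 40.2, 44.95 and 70.1 CPM with both transgenes, higher by 2.05 ± 0.36 (adjusted p = 0.00861). Entpd1 read 12.7, 4.59 and 14.96 CPM and 113, 34.2, 26.2 and 59.2 CPM, higher by 2.00 ± 0.48 (adjusted p = 0.0358). Neither gene's groups overlapped, nor did those of Tox (-0.99, adjusted p = 0.0886), as held for 15.4% of all genes. Myeloid markers, cells in which Havcr2 and Entpd1 are also expressed, read 760.2, 64.3 and 306.7 CPM in these Eµ-PRMT5 Cd4 T cells and 467, 4520, 5304 and 583 CPM in those of Eµ-PRMT5/TCL1 spleens, and their part in the difference was not tested. Leaving out 1 Eµ-PRMT5 spleen ended the Havcr2 call in 2 of 3 cases (adjusted p = 0.0666 without spleen 1, 0.0537 without spleen 3) and the Entpd1 call in all 3 (0.149, 0.101 and 0.114). Neither gene passed with sets of at least 50 cells (adjusted p = 0.111 for Havcr2 and 0.161 for Entpd1) or with Cd4 T cells that held no Il2ra or Ikzf2 UMI (0.0884 and 0.0521).

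The Cd4 T cells of the double transgenic spleens differed from those of Eµ-PRMT5 spleens in other lists too, where 3.95% of all genes passed. Eµ-PRMT5/TCL1 spleens 1 and 3 gave only 22 and 26 of these cells. The part of the myeloid RNA given above in these differences was not tested, and their stability is not given. All 5 cell-cycle genes were higher, Mki67 by 2.91 (164 against 18.9 CPM, adjusted p = 0.003) and Birc5 by 3.24. Of 12 effector genes 5 were higher, Gzmb by 6.40 (484 against 5.78 CPM), Ccl3 by 4.89, Nkg7 by 3.95, Gzmk by 2.69 and Ccl5 by 2.12. Of 10 naive and memory genes 6 were lower, Il7r by -3.23 and Tcf7 by -2.001.

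Among lymph nodes the design held Eµ-PRMT5/TCL1 and Eµ-TCL1 mice only. In nodal Cd8 T cells Ctla4 read 32.4, 10.7, 10.3 and 16.9 CPM in 4 Eµ-PRMT5/TCL1 and 2.06, 1.85 and 4.12 CPM in 3 Eµ-TCL1 nodes. Tigit read 368, 168, 80.9 and 114 CPM against 24.9, 48.2 and 54.7 CPM. Neither overlapped, nor did Entpd1, as held for 10.7% of genes. The log2 differences were 2.73 ± 0.39 for Ctla4 (adjusted p = 0.107), 2.01 ± 0.40 for Tigit (adjusted p = 0.159) and 2.11 ± 0.88 for Pdcd1 (adjusted p = 0.3). No member passed in edgeR, where 0.0177% of 11292 genes did (1725 at an unadjusted p below 0.05), while DESeq2 called Ctla4 and Tigit, and so did edgeR without Eµ-TCL1 lymph node 3. Pdcd1 read 281, 13.3, 15.04 and 24.4 CPM against 5.01, 13.6 and 12.8 CPM, so its mean of 83.5 ± 132 CPM in Eµ-PRMT5/TCL1 rested on lymph node 1 with its 30 cells. Without that node the differences were 1.07 for Pdcd1, 2.66 for Ctla4 and 1.76 for Tigit, and none passed.

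Nodal Cd4 T cells, with 3 Eµ-PRMT5/TCL1 and 2 Eµ-TCL1 libraries, gave 2 of the 7 members tested past the threshold where 3.08% of 8986 genes passed. Ctla4 read 243, 239.5 and 159.6 CPM against 76.0 and 45.6 CPM (log2 1.82 ± 0.31, adjusted p = 0.00387). Havcr2 read 45.9, 15.8 and 33.3 CPM against 2.38 and 11.4 CPM (3.17 ± 0.72, adjusted p = 0.0246). Both groups were apart in value, as they were for 33.6% of genes. Havcr2 fell to 1.46 (adjusted p = 0.64) without Eµ-TCL1 lymph node 1 and lost its call without Eµ-PRMT5/TCL1 lymph node 2 (adjusted p = 0.0758) or 4 (0.155), or with no Il2ra or Ikzf2 UMI in the Cd4 class (0.0661). Of 12 effector genes 7 were higher, Gzmb by 3.35 and Ccl3 by 3.81 among them, and Gzma was lower (-4.07). Eµ-TCL1 lymph node 2 gave only 30 Cd4 T cells, and the stability of these list calls is not given. Of 14 regulators 4 were higher, the receptor-signalling targets Nr4a2 by 4.60 and Nr4a1 by 2.97 among them, and 5 of 10 naive and memory genes were lower, Tcf7 by -2.45.

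Spleen and lymph node of the same mouse were compared in 7 mice for Cd8 T cells. Entpd1 was lower in the node in 7 of 7 mice (4.83 ± 7.42 against 15.5 ± 11.1 CPM, log2 -2.30 ± 0.35, adjusted p = 0.0204), the only member past the threshold where 0.601% of 12154 genes passed, and 5.13% of genes went 1 way in all 7 mice. Pdcd1 (-1.99 ± 0.59, adjusted p = 0.148), Havcr2 (-1.79, adjusted p = 0.152), Ctla4 (-1.55, adjusted p = 0.23) and Tigit (-0.73, adjusted p = 0.283) were lower in the node in 6 of 7 mice and did not pass. Neutrophil markers, from cells in which Entpd1 is high, summed to 3.8 to 4349 CPM in these splenic Cd8 sets and 0 to 1643 CPM in the nodal sets, and their part in the difference was not tested. Without Eµ-PRMT5/TCL1 lymph node 1 the mean of Entpd1 in the nodes was 2.03 CPM. The Entpd1 call was lost without the mouse of Eµ-TCL1 lymph node 1 (-1.96, adjusted p = 0.0747) or 2 (0.0517) or of Eµ-PRMT5/TCL1 lymph node 3 (-2.05, adjusted p = 0.0986) or 4 (-2.36, adjusted p = 0.179), and Pdcd1 and Ctla4 passed without the mouse of Eµ-TCL1 lymph node 3. No member differed between genotypes in its tissue difference in Cd8 T cells, where 0.0% of genes did (276 at an unadjusted p below 0.05).

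**Figure D5:**
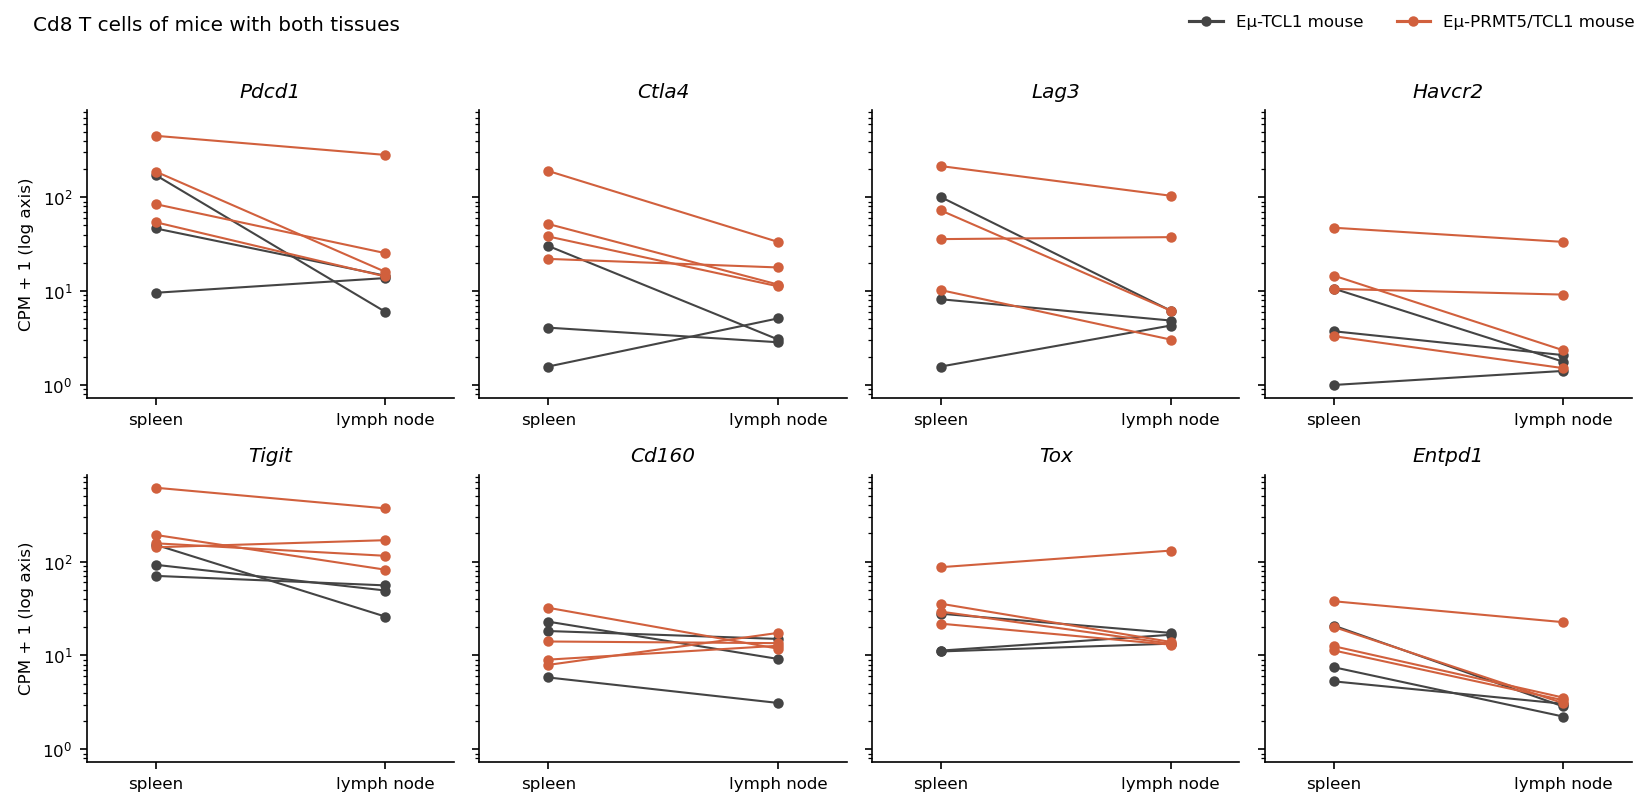
Level of each member (CPM + 1, log axis) in Cd8 T cells of spleen and lymph node, with a line for each of the 7 mice. Entpd1 goes down toward the node in all 7 mice, and Pdcd1, Ctla4, Havcr2 and Tigit in 6.

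For Cd4 T cells 4 mice had both tissues, 1 Eµ-TCL1 and 3 Eµ-PRMT5/TCL1. Pdcd1 was lower in the node by a log2 difference of -0.83 ± 0.17 (242 ± 112 against 518 ± 378 CPM, adjusted p = 6.64e-05) in 3 of 4, and Lag3 was higher by 0.58 ± 0.18 (adjusted p = 0.0391) in 2 of 4, where 3.93% of 10347 genes passed. The mean Lag3 of the nodes was the lower one (305 against 380.0 CPM), and the fitted difference turned to -0.35 (adjusted p = 0.927) without the mouse of Eµ-PRMT5/TCL1 lymph node 4. Neither passed in DESeq2 (adjusted p = 0.678 for Pdcd1 and 0.9999 for Lag3) or with a count minimum of 10 (0.08804 and 0.419). In the 3 Eµ-PRMT5/TCL1 mice alone Pdcd1 read -0.21 (adjusted p = 0.828), Lag3 1.304 (adjusted p = 6.25e-07) and Ctla4 0.79 (adjusted p = 0.017), where 4.47% of genes passed. Lag3 and Ctla4 were each higher in the node in 2 of these 3 mice. Without the mouse of Eµ-PRMT5/TCL1 lymph node 4 neither passed (0.26 and 0.31, each adjusted p = 1.0) while Pdcd1 did (-1.02, adjusted p = 0.0209), and without that of lymph node 3 Ctla4 did not (adjusted p = 0.256). DESeq2 called neither. In the 1 Eµ-TCL1 mouse Pdcd1 went from 1061 CPM in spleen to 179 CPM in node, Lag3 from 1086 to 393 CPM and Ctla4 from 340.2 to 76.0 CPM.

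The tissue difference (node minus spleen, log2) of the 3 Eµ-PRMT5/TCL1 mice was set against that of the 1 Eµ-TCL1 mouse. Positive values mean that it was higher in the Eµ-PRMT5/TCL1 mice. With 1 mouse on one side, the spread came from the 3 others alone and the p-values assume that the lone mouse varies like them. Under that assumption 4 members passed, Ctla4 (3.07), Lag3 (2.89), Pdcd1 (2.48) and Tigit (1.31), where 3.89% of genes passed (edgeR adjusted p = 2.16e-11, 6.34e-12, 2.78e-09 and 0.00219). The test could not be fitted without that mouse, and DESeq2 called Ctla4 alone. Genotype and mouse cannot be told apart here.

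B cells, to which both transgenes are directed, held Ctla4 and Lag3 above the neutrophil level and Entpd1 near it. Their splenic means of Pdcd1 (8.33 CPM) and Tigit (6.55 CPM) also lay above those of neutrophils. Pdcd1 was as low as 0.046 CPM in Eµ-TCL1 spleen 4. The gate did not separate malignant from other B cells. In the B-cell sets T-cell markers summed to 116 to 771 CPM, against 5658 to 28780 CPM of B-cell markers. These lists hold the Cd3 and Cd79 genes of the gate. Splenic Ctla4 in Eµ-PRMT5 mice read 32.5, 115, 54.0, 44.3 and 211 CPM, in Eµ-TCL1 mice 106, 116, 58.9 and 175 CPM and in Eµ-PRMT5/TCL1 mice 77.8, 47.2, 13.9 and 428 CPM, and all 3 groups overlapped. Pdcd1 in B cells reached 27.8 CPM in Eµ-PRMT5 spleen 4 and 26.65 CPM in Eµ-PRMT5/TCL1 spleen 4. No member passed between genotypes in splenic B cells, where 0.00753%, 0.0% and 0.0% of 13282 genes did (2097, 624 and 1129 at an unadjusted p below 0.05).

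In nodal B cells no member passed in edgeR, where 0.0% of 12425 genes did (936 had an unadjusted p below 0.05), while 2 passed in DESeq2. Entpd1 read 72.4, 43.0, 34.4 and 40.0 CPM in Eµ-PRMT5/TCL1 against 92.2, 91.6 and 86.9 CPM in Eµ-TCL1 nodes, without overlap as for 6.77% of genes (edgeR log2 -0.95 ± 0.22, adjusted p = 0.523, DESeq2 adjusted p = 0.0281). Pdcd1 read 14.5, 1.28, 15.6 and 20.97 CPM against 2.575, 0.589 and 0.559 CPM (edgeR 3.89 ± 1.01, adjusted p = 0.528, DESeq2 adjusted p = 0.00513). Between node and spleen no member passed in B cells, where 0.0351% of genes did.

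The ligands of these receptors were read in the same B cells, and none of them passed between genotypes. Cd274, which encodes PD-L1, had means of 52.3 ± 27.3 CPM in Eµ-PRMT5, 44.3 ± 32.8 CPM in Eµ-TCL1 and 79.1 ± 42.7 CPM in Eµ-PRMT5/TCL1 spleens. Cd86 (159.9, 121.7 and 123.7 CPM) and Cd80 (28.0, 41.8 and 26.6 CPM), the ligands of CTLA-4, had means in the same order of genotypes that did not pass the test. Lgals9, encoding galectin-9, read 24.9 ± 16.8, 41.4 ± 5.82 and 59.35 ± 13.2 CPM. In the spleen group means the Lag3 ligand gene H2-Ab1 was abundant (1660.4 to 2277 CPM). The TIGIT ligand genes Pvr (4.17 to 5.62 CPM) and Nectin2 (1.201 to 2.15 CPM) and the CD160 ligand gene Tnfrsf14 (2.39 to 3.31 CPM) were sparse there. Nodal B cells had H2-Ab1 means of 1518 CPM in Eµ-PRMT5/TCL1 and 1421 CPM in Eµ-TCL1 mice.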

How the data were processed

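Single-cell 3′ RNA-seq was run on spleen and lymph node cells of 13 mice (20 libraries). The authors aligned and counted with Cell Ranger 2.0.1 per the submitters' notes, which also name Seurat 2.2.1 and GRCm38, whereas the matrix headers name version 3.1.0, and they deposited raw UMI counts per gene for all 737280 barcodes. From those counts, a barcode was called a cell when it reached the UMIs of the 99th percentile (of the 3000 barcodes with most UMIs) divided by 10, held 200 genes or more, and had no more than 10% of its UMIs from mitochondrial genes, which gave 87773. In 17 libraries Scrublet's own threshold marked under 0.5% of cells, so the cells with the highest doublet scores, 0.8% per 1000 cells, were removed (3542). Libraries held 9.34809e+06 to 7.24409e+07 UMIs. Cell calling, doublet removal and class gates were not the authors' own and could shift values.

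Counts were summed per library and class (at least 20 cells), genes kept by filterByExpr (min.count 3, min.total.count 15), scaled by TMM and tested with edgeR 4.0.16 quasi-likelihood fits (R 4.3.3), Benjamini-Hochberg adjusted over all genes at a threshold of 0.05. Class comparisons had the library as block, tissue comparisons the mouse, and genotype comparisons no block. Every set of a comparison entered 1 fit. DESeq2 1.42.0, other filters, gates, thinning, scaling and each library left out were alternatives. Classes, shares and figures came from Python 3.11.15, scanpy 1.11.5, numpy 2.4.6 and matplotlib 3.10.9. Shares of cells were taken after thinning every cell to 1500 UMIs and cover counting error only. Tests were checked on simulated counts. For Cd8 T cells of Eµ-PRMT5 against Eµ-TCL1 spleens (11419 genes), 77 of 100 genes changed 2-fold and 100 of 100 changed 4-fold were recovered. There were 9 false calls. For Foxp3-positive against Foxp3-negative cells (8994 genes) 30 and 100 of 100 were recovered, with 3 false calls. In the real data a 4.5-fold Ctla4 difference in that Cd8 comparison did not pass. Recovery in the simulation therefore does not exclude 4-fold changes of a member.

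Groups came from the labels, and the mouse of a node and spleen from the titles. Deviations from the group means correlated at a median of 0.118 (-0.165 to 0.323) in the 7 node and spleen pairs of 1 mouse, against 0.00927 for libraries of other numbers. The members and gene lists were chosen with earlier results of these data known. Genes of the fixed lists were named when past the threshold, up to 6 per list by size of difference. 1 gene that this rule names is not reported here by name, and list counts include it. Promoter sequences were taken from RefSeq.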

Additional observations from a re-analysis of the deposited data

Results flagged for a closer look

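Each member in each class and group of 4 or 5 libraries, 61 sets of values, was checked for a library far from the rest, which chance alone flags in about 1 of 20 sets, and 18 were found. In Cd8 T cells of Eµ-PRMT5/TCL1 lymph nodes, node 1 stood apart for Pdcd1 (281.1 CPM), Tox (129.7 CPM) and Entpd1 (21.62 CPM), from 30 cells. In Cd8 T cells of Eµ-PRMT5 spleens, spleen 4 stood apart for Ctla4 (213.1 CPM), Lag3 (109.1 CPM), Havcr2 (76.12 CPM) and Cd160 (91.34 CPM), from 32 cells with the most B-cell marker RNA. In Cd8 T cells of Eµ-TCL1 spleens, spleen 1 stood apart for Ctla4 (29.23 CPM), Lag3 (99.21 CPM) and Entpd1 (19.84 CPM). Eµ-PRMT5/TCL1 spleen 4 stood apart for Tigit in Cd8 T cells (610.3 CPM) and Havcr2 in Cd4 T cells (70.14 CPM).

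In B cells, Eµ-PRMT5/TCL1 spleen 4 stood apart for Ctla4 (427.6 CPM), Lag3 (84.42 CPM) and Entpd1 (125.3 CPM), and spleen 2 of that group for Havcr2 (2.026 CPM). Eµ-PRMT5 spleen 4 stood apart for Pdcd1 (27.79 CPM) and Eµ-TCL1 spleen 1 for Tigit (7.942 CPM).

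In the test of the difference between lymph node and spleen in Foxp3-negative Cd4 T cells, the 3 Eµ-PRMT5/TCL1 mice and the 1 Eµ-TCL1 mouse gave 4 members past the threshold (edgeR, adjusted p = 2.159e-11 for Ctla4, 2.778e-09 for Pdcd1, 6.335e-12 for Lag3 and 0.002185 for Tigit). The spread came from the 3 mice alone, and genotype and mouse cannot be told apart.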

How the results depend on the processing

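Counts of the members called are given first as reported and then where an alternative moved them by more than 1.5 times, and the cause was not tested unless stated. For Foxp3-positive against Foxp3-negative cells, 2 became 0 with DESeq2, 0 with a count minimum of 10, 1 with no Cd79 UMI allowed and 1 to 2 with a library left out. No lymph node set of Foxp3-positive cells reached 20 cells, so that genotypes and tissues could not be fitted for them. For the Pdcd1 split, 7 in nodal Cd8 T cells became 3 when cells were split after thinning. In splenic Cd4 T cells 0 became 4 with no filter and 0 to 2 with a library left out. In nodal Cd4 T cells 1 became 0 with DESeq2, with sets of at least 50 cells or with thinned cells, 2 with no filter, with doublets kept or with no Cd79 UMI, and 0 to 2 with a library left out.

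For Eµ-PRMT5 against Eµ-TCL1 spleens 1 became 2 with no filter, 0 with at least 50 cells, 3 with Xist as covariate and 0 to 3 with a library left out (0 without Eµ-PRMT5 spleen 1, 3 without Eµ-PRMT5/TCL1 spleen 4). For Eµ-PRMT5/TCL1 against Eµ-TCL1 spleens 1 became 3 with DESeq2, with no filter or with Xist as covariate, 0 with at least 50 cells or with Il2ra and Ikzf2 absent from the Cd4 class, and 0 to 3 with a library left out. For Eµ-PRMT5/TCL1 against Eµ-PRMT5 spleens 2 became 0 with at least 50 cells or the stricter Cd4 class and 0 to 3 with a library left out. Without Eµ-TCL1 spleen 1 Cd4 T cells could not be compared with that genotype. In B cells 0 became 2 with DESeq2 and stayed 0 with any library left out. In lymph nodes 2 became 4 with no filter, 1 with the stricter Cd4 class and 1 to 4 with a library left out (4 without Eµ-TCL1 lymph node 3).

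Between node and spleen 3 became 1 with a count minimum of 10, 5 with no filter, 1 with at least 50 cells and 0 to 5 with a mouse left out. The difference by genotype went from 4 to 1 with DESeq2 and 0 to 5 with a mouse left out, though Cd4 T cells could not be fitted without the Eµ-TCL1 mouse. With at least 50 cells it gave 0. Cd4 T cells were then left with the mice of Eµ-TCL1 lymph node 1 and Eµ-PRMT5/TCL1 lymph node 4 only. That leaves no spread to test, so this 0 does not show that calls were lost. The reversed value was Lag3 in Cd4 T cells between node and spleen, -0.35 (adjusted p = 0.927) without the mouse of Eµ-PRMT5/TCL1 lymph node 4 (-0.35 to 0.75 with any 1 mouse left out). The mean share of cells with a UMI over members was 5.545% thinned and 15.3% unthinned.

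Blocks changed some counts. With no replicate block, the Foxp3 comparison gave 0, the nodal Cd4 split 0, node against spleen 1 and its difference by genotype 0. With the number of the label as a replicate block, a number that does not mark the same animal across groups, the spleen comparisons gave 3, 2 and 4 (for Eµ-PRMT5 against Eµ-TCL1, Eµ-PRMT5/TCL1 against Eµ-TCL1 and Eµ-PRMT5/TCL1 against Eµ-PRMT5). Same-numbered libraries of a tissue correlated at a median of 0.0119 (-0.397 to 0.536, 15 pairs).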

Other observations

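Across 26 summed T-cell sets of at least 50 cells (Cd8 and Foxp3-negative Cd4 T cells of all tissues), the genes whose level followed each member most closely were listed by Pearson's r on the log scale. The sets share libraries and fall into Cd8 and Cd4 classes, so that r partly describes the class difference, and it is given without a test. Pdcd1 was followed most closely by Itga4 (0.925), Tigit (0.924) and Bcl2a1d (0.911), Ctla4 by Bhlhe40 (0.928), Maf (0.926) and Tnfrsf4 (0.924), and Lag3 by Ptms (0.936), Epas1 (0.925) and Sec14l1 (0.921). Havcr2 was followed by Agpat4 (0.941) and Osbpl3 (0.899), Tigit by Pdcd1 (0.924) and Rora (0.919), Tox by Cd9 (0.962), Etv6 (0.947) and Maf (0.945), and Entpd1 by Gimap7 (0.872). Cd160 had no gene as close, with Il12rb2 (0.698) first.

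Over the 18 Cd8 sets alone, Pdcd1 was followed by Anxa2 (0.918), Itga4 (0.908) and Etv6 (0.884). Between members, Lag3 and Havcr2 had r = 0.943, Pdcd1 and Tigit 0.863 and Pdcd1 and Lag3 0.83, while Cd160 ranged from 0.078 to 0.575 with the others. The 18 sets come from 13 or fewer mice and differ in depth.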
